A study of Rattus norvegicus with 18 samples.

Results

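The genes described here are 9 rat genes that the transcription factor NRF2 is known to switch on, or that encode NRF2 itself: Nfe2l2, Nqo1, Gclc, Gclm, Slc7a11, Gsr, Txnrd1, Srxn1 and Osgin1. They were chosen by symbol, through the accession that each array probe carries, and all 9 of 9 were measured, by 11 probes, among 21574 genes in all. Each gene is represented by its brightest probe. Levels are given as log2 of the processed fluorescence relative to the 75th percentile of the same array, so 1 unit is a 2-fold difference and a level near 0 lies near that percentile.

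NRF2 is held in the cytoplasm by KEAP1, which hands it to an ubiquitin ligase for degradation. Electrophiles and oxidants modify cysteines of KEAP1, NRF2 then accumulates, enters the nucleus, pairs with a small MAF protein and binds antioxidant response elements near its target genes. In liver this response is known for raising glutathione, the thioredoxin system and enzymes that detoxify quinones. Because NRF2 is mainly controlled through the stability of its protein, the mRNA of Nfe2l2 is a poor guide to its activity, and its targets are the usual readout.

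The cells were cryopreserved primary hepatocytes of male Sprague Dawley rats (SD), grown for 24 h and then kept for a further 24 h with DDMB, CDMB, CDEB or DDEB at 300 µM, or with the vehicle DMSO alone. The series concerns p-dialkoxy chlorobenzenes, and the compounds are known here by these codes only. DDMB, CDMB and CDEB were set against the DMSO group VC_1, and DDEB against the DMSO group VC_2, because different chip lots were used. Each of the 6 groups holds 3 independent experiments, 1 array each (18 arrays), and the labels do not say whether these came from different animals, so the errors measure the spread between these cultures. Every array carried Cy3-labelled RNA of a whole culture, in which fewer cells of a type and less RNA per cell cannot be told apart. The listed hepatocyte markers (8 of 8 measured, among them Alb, Ttr and Cps1) lay well above background on all 18 arrays, while of the 8 Kupffer cell markers only Cd68 and Clec4f were measured. Markers of other cell types were measured too: 6 of 8 for stellate cells or fibroblasts, 3 of 8 for endothelial cells and 3 of 7 for cholangiocytes. VC_1 and DDMB lay on 1 slide, VC_2 and the first 2 DDEB arrays on the second slide, the third DDEB array on a slide of its own, and CDMB and CDEB together on the fourth slide. For CDMB and CDEB, slide and compound therefore cannot be told apart in any comparison with VC_1.

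Promoter windows of RefSeq (build GRCr8, 250 bases before to 50 bases after the start of a gene) were matched for 8 of the 9 genes, with 9 windows in all. They were searched on both strands for the core of the antioxidant response element, written TGACNNNGC, and for the looser TGANNNNGC, which every match to the first also meets. The looser motif was found in 7 of the 8 genes with a window, and in 40.5% of the 33469 windows of all genes. The narrower motif was found in 3 of them, Gclm, Txnrd1 and Nfe2l2, and in 12.1% of all windows. A match of letters is a description and not a site of binding. The 4 windows below belong to genes whose levels differed together between replicate cultures: Srxn1, Slc7a11 and Gclc in one direction and Nqo1 in the other. Matches to the looser motif are in capitals. Srxn1 (chr3:161064562-161064861, plus strand) holds 3, Slc7a11 (chr2:136668215-136668514, minus strand) and Nqo1 (chr19:52220218-52220517, minus strand) hold 1 each, and Gclc (chr8:87510226-87510525, plus strand) holds none.
Srxn1: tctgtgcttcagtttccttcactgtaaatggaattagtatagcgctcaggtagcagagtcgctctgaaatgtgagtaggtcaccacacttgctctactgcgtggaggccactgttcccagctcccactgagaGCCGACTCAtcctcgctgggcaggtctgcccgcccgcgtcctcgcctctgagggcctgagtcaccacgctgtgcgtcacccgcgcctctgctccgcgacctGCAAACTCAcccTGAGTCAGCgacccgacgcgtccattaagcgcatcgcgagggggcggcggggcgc
Slc7a11: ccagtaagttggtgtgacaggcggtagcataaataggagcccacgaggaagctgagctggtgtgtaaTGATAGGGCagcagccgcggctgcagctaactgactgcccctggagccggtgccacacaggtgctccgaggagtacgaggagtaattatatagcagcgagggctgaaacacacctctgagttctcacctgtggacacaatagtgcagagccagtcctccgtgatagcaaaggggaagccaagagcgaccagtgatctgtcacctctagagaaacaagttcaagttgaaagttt
Gclc: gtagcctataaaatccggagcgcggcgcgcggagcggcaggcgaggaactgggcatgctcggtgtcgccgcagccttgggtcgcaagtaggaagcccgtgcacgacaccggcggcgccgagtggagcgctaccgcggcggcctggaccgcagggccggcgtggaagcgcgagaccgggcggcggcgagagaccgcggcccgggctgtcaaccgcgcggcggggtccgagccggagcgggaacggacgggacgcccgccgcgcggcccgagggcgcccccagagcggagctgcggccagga
Nqo1: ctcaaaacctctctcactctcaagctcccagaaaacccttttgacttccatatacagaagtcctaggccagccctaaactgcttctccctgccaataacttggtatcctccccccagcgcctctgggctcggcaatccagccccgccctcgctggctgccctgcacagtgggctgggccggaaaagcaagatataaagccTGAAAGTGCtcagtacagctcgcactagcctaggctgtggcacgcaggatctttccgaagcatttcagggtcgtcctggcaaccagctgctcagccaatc

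No gene of the 9 was called changed by any compound. A call is an adjusted p below 0.05 in limma, with Benjamini-Hochberg adjustment over all 21574 genes. With DDMB 0 of 9 were called, where 0.556% of all genes were. With CDMB the count was 0 of 9 beside 0.0417% of all genes, with CDEB 0 of 9 beside 0.134%, and with DDEB 0 of 9 beside 0.987%. At an unadjusted p under 0.05 in limma, 2 members (Gsr and Osgin1) passed with DDMB, where 9.9% of all genes did, and 1 (Gsr) passed with DDEB, where 15.2% did. None passed with CDMB or CDEB, where 13.3% of all genes did in each. The median log2 change of the 9 was -0.06 with DDMB, 0.19 with CDMB, 0.13 with CDEB and 0.08 with DDEB, and that of all genes was 0.014, 0.012, 0.009 and 0.017 in the same order. The 3 comparisons with VC_1 share its arrays, so these medians are not independent of each other.

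**Figure D1:**
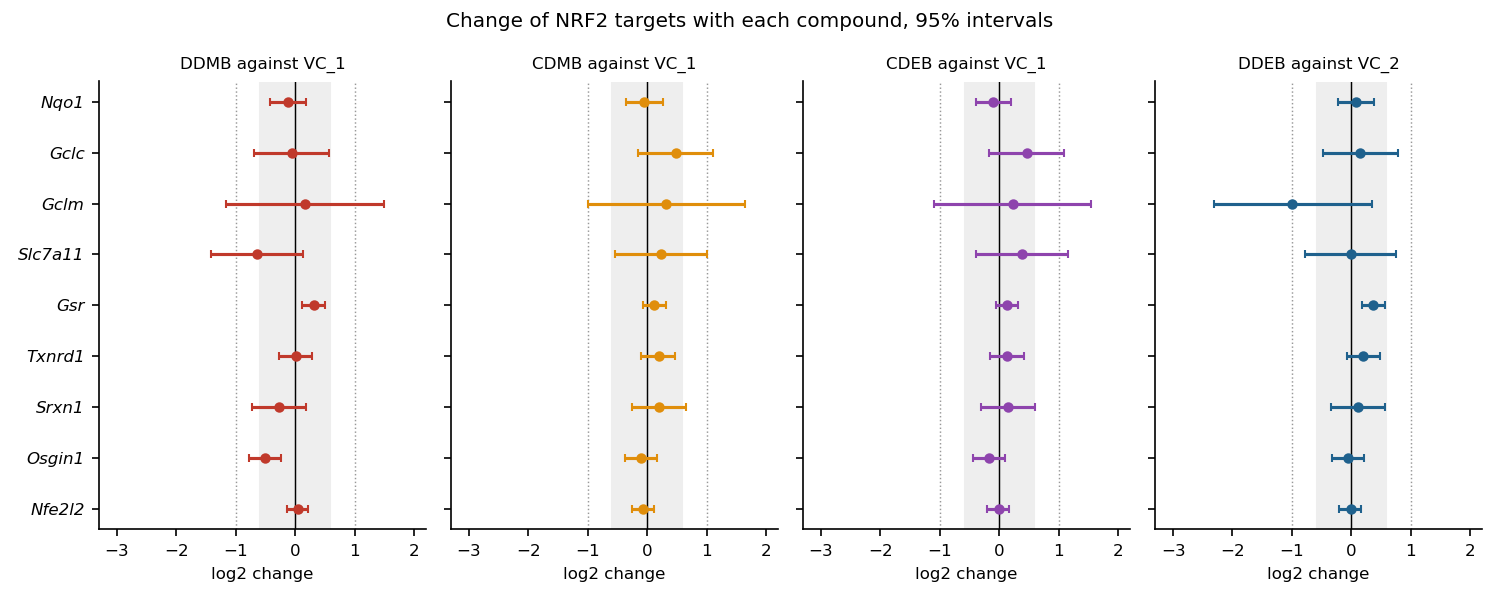
Log2 change of each of the 9 genes with each compound over its DMSO group, with the 95% interval of the limma fit (n = 3 arrays per group). The grey band marks 1.5-fold either way and the dotted lines 2-fold. Nfe2l2, Gsr, Txnrd1 and Nqo1 have short intervals inside the band in all 4 panels, and Gclm, Slc7a11 and Gclc have the long ones.

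How small a change the arrays exclude differed between the genes, while within a gene the shared fit gives every compound the same standard error. The groups did not spread alike: the median SD over all genes was 0.074 in CDEB, 0.095 in CDMB, 0.136 in DDMB and 0.188 in DDEB. It was 0.148 in VC_1 and 0.141 in VC_2. The shared error may thus be too wide for CDEB and CDMB and too narrow for DDEB. The 95% interval, taken gene by gene, lay wholly within 1.5-fold of the DMSO level for 4 of 9 genes with DDMB, 5 with CDMB, 5 with CDEB and 6 with DDEB, beside 70.0%, 66.0%, 65.5% and 66.6% of all genes. Nqo1, Gsr, Txnrd1 and Nfe2l2 were inside 1.5-fold with every compound. Osgin1 was inside it with CDMB, CDEB and DDEB, and Srxn1 with DDEB. A 2-fold rise was excluded for 8 of 9 genes with DDMB (all but Gclm), for 6 with CDMB and 6 with CDEB (all but Gclc, Gclm and Slc7a11), and for 9 of 9 with DDEB. A fall to 0.5 times the DMSO level was excluded for 7 genes with DDMB (all but Gclm and Slc7a11), for 9 with CDMB and for 8 with CDEB and 8 with DDEB (all but Gclm). With CDMB, Gclm passed only barely, at a lower limit of 0.501 times. With DDEB, the upper limit of Gclm was 1.26-fold, around a mean lowered by replicate 3, which was not well above background. With only the DDEB and VC_2 arrays fitted, the SE of that Gclm change was 0.92, beside 0.62 in the shared fit.

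The spread behind these limits was set by the replicates. The residual SD was 0.099 log2 units for Nfe2l2 and 0.105 for Gsr, below the median of 0.165 over all genes. Txnrd1 (0.165), Osgin1 (0.157) and Nqo1 (0.179) lay near that median. Srxn1 (0.272), Gclc (0.386), Slc7a11 (0.472) and Gclm (0.812) spread more, and Gclm lay at percentile 98.5 of all genes. The Gclm value rests mostly on DDEB replicate 3, which was not well above background. Its SD was 1.93 in DDEB and 0.08 to 0.30 in the other groups. In both DMSO groups, replicate 3 stood apart from replicates 1 and 2: its Gclc lay 0.92 below their mean in VC_1 and 0.81 below it in VC_2, and its Slc7a11 0.98 and 1.04 below. Over the 18652 genes well above background on every array, the deviation of VC_1 replicate 3 from its group mean correlated at r = 0.91 with that of VC_2 replicate 3, as a description across genes, which are not independent. For same-numbered VC_2 and VC_1 arrays this correlation was 0.8 for replicate 1, 0.69 for replicate 2 and 0.91 for replicate 3. Whether the same-numbered VC_1 and VC_2 arrays carried RNA of the same cultures is not stated by the labels. The fit took them as separate cultures. If they were the same, the shared spread and its degrees of freedom count the DMSO cultures more than once. For Nqo1, Gclc, Slc7a11, Srxn1, Osgin1 and Hmox1, values are also given below without replicate 3 of both DMSO groups.

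**Figure D2:**
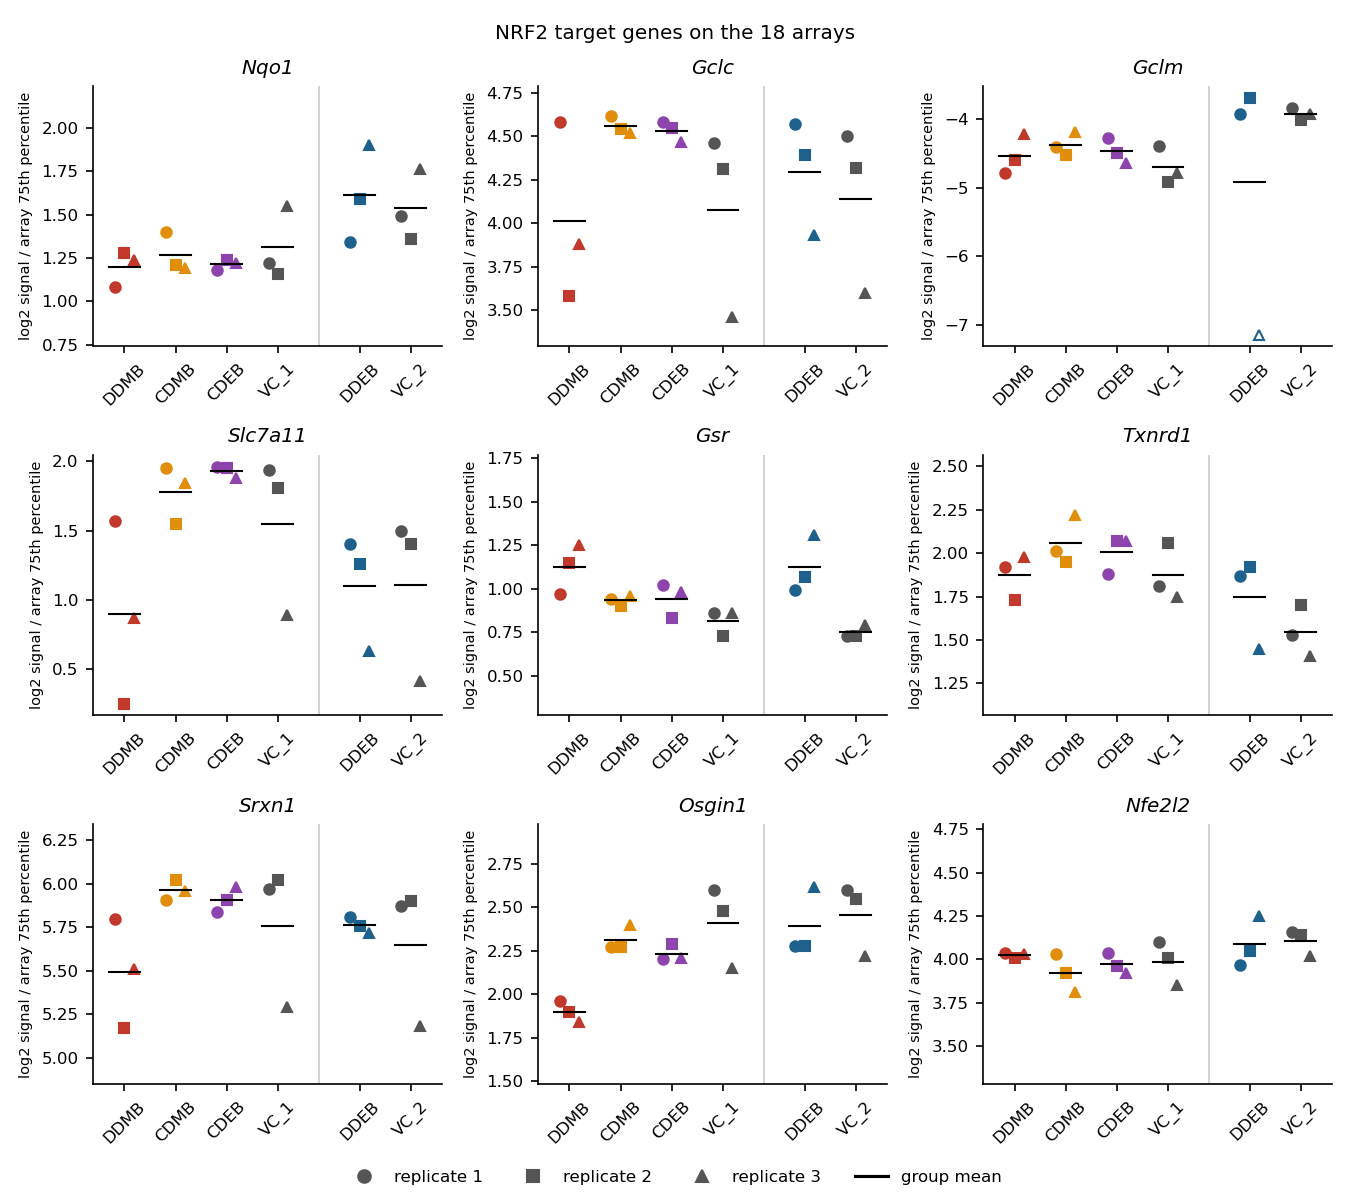
Level of the 9 genes on all 18 arrays, as log2 of the signal over the array's 75th percentile, by group (horizontal axis) and replicate (marker shape), with a black bar at each group mean. A grey line parts the chip lots, and the open triangle of Gclm with DDEB is the 1 value not well above background. Replicate 3 of both DMSO groups is the lowest DMSO value for Gclc, Slc7a11, Srxn1, Txnrd1, Osgin1 and Nfe2l2 and the highest for Nqo1, and the Gsr arrays of DDMB and of DDEB all lie above those of their DMSO group.

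Nfe2l2, which encodes NRF2, had almost the same level on every array. In replicates 1, 2 and 3 it stood at 4.04, 4.01 and 4.03 with DDMB, at 4.03, 3.92 and 3.81 with CDMB and at 4.04, 3.96 and 3.92 with CDEB, against 4.10, 4.01 and 3.85 in VC_1. With DDEB it stood at 3.97, 4.05 and 4.25, against 4.16, 4.14 and 4.02 in VC_2. Treated and DMSO values overlapped in all 4 comparisons. Its log2 change was 0.04 with DDMB, -0.07 with CDMB, -0.01 with CDEB and -0.01 with DDEB, each with an SE of 0.09. Over the 4 comparisons, the intervals excluded any rise beyond 1.17-fold and any fall below 0.841 times the DMSO level.

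Nqo1 encodes NAD(P)H quinone oxidoreductase, which reduces quinones and is a widely used readout of NRF2 in liver. Its level was 1.08, 1.28 and 1.24 with DDMB, 1.40, 1.21 and 1.19 with CDMB and 1.18, 1.24 and 1.22 with CDEB, against 1.22, 1.16 and 1.55 in VC_1. On the other lot it was 1.34, 1.59 and 1.90 with DDEB, against 1.49, 1.36 and 1.76 in VC_2. The groups overlapped in every comparison, and the highest value of each DMSO group was that of replicate 3. The log2 change was -0.12 ± 0.14 with DDMB, -0.05 with CDMB, -0.10 with CDEB and 0.08 with DDEB (SE, n = 3 per group). The interval ran from 0.747 to 1.14 times the DMSO level with DDMB, from 0.785 to 1.20 with CDMB, from 0.756 to 1.15 with CDEB and from 0.854 to 1.30 with DDEB. A rise of Nqo1 by more than 1.30-fold was thus outside the interval for each of the 4 compounds. Without replicate 3 of both DMSO groups the changes were 0, 0.07, 0.02 and 0.19 in that order, and the highest upper limit was 1.39-fold (DDEB).

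Gclc encodes the catalytic subunit of glutamate-cysteine ligase, which carries out the rate-limiting step of glutathione synthesis. It stood at 4.58, 3.58 and 3.88 with DDMB, at 4.62, 4.54 and 4.52 with CDMB and at 4.58, 4.55 and 4.47 with CDEB, against 4.46, 4.31 and 3.46 in VC_1. On the other lot it stood at 4.57, 4.39 and 3.93, against 4.5, 4.32 and 3.60 in VC_2. The CDMB and the CDEB arrays all lay above the 3 VC_1 arrays, while the DDMB and DDEB arrays overlapped with theirs. Groups that do not overlap were found for 2 of 9 members with CDMB (Gclc and Gsr) and 1 with CDEB (Gclc), where 25.5% and 29.3% of all genes did not overlap. Replicate 3 of VC_1 lay 1.99-fold below the highest VC_1 array. The log2 change was 0.48 ± 0.29 with CDMB (0.90 to 2.16 times the DMSO level, adjusted p = 0.482 in limma) and 0.46 with CDEB (0.885 to 2.13 times, adjusted p = 0.505 in limma). Without replicate 3 of both DMSO groups the changes were 0.17 with CDMB and 0.15 with CDEB. With DDMB the change was -0.06 (0.618 to 1.49 times), or -0.37 (0.54 to 1.11 times) without those DMSO arrays. With DDEB it was 0.15 (0.718 to 1.73 times), and its sign turned, to -0.12 (0.644 to 1.32 times), without them.

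Gclm encodes the modifier subunit of the same ligase. Its only probe was very dim, with a processed intensity between 3.05 and 42.4, and it lay well above background on 17 of 18 arrays. The levels were -4.79, -4.60 and -4.21 with DDMB, -4.40, -4.53 and -4.19 with CDMB and -4.27, -4.50 and -4.64 with CDEB, against -4.39, -4.91 and -4.79 in VC_1. With DDEB they were -3.92, -3.69 and -7.14, against -3.84, -4.01 and -3.93 in VC_2, and the last DDEB array was the one not well above background. All groups overlapped. Changes on the log2 scale were 0.17 ± 0.62 with DDMB, 0.32 with CDMB, 0.23 with CDEB and -0.99 with DDEB (adjusted p = 0.467 in limma), and the last became 0.13 without DDEB replicate 3. These intervals reached up to 3.13-fold (CDMB) and down to 0.202 times (DDEB), so that little was excluded for Gclm. The 6 groups share 1 spread in the fit, so DDEB replicate 3 widened the Gclm intervals of every compound. Without that array the SE of the DDEB change was 0.18, beside 0.62 with it.

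Slc7a11 encodes the light chain of the cystine/glutamate antiporter, which brings in the cystine from which glutathione is made. It stood at 1.57, 0.25 and 0.87 with DDMB, at 1.95, 1.55 and 1.84 with CDMB and at 1.96, 1.95 and 1.88 with CDEB, against 1.94, 1.81 and 0.89 in VC_1. DDEB arrays stood at 1.40, 1.26 and 0.63, against 1.5, 1.40 and 0.41 in VC_2. All treated groups overlapped with their DMSO group, and the 3 DDMB arrays differed among themselves by more than 1 log2 unit, as did the arrays of VC_1 and of VC_2. The log2 change with DDMB was -0.65 ± 0.36 (0.374 to 1.09 times the DMSO level, adjusted p = 0.613 in limma). Without replicate 3 of both DMSO groups it was -0.97 (0.321 to 0.809 times, adjusted p = 0.203 in limma), and without DDMB replicate 2 it was -0.32. The other compounds gave 0.23 (CDMB), 0.38 (CDEB) and -0.01 (DDEB), with upper limits of 2.01, 2.23 and 1.70-fold. Leaving out replicate 3 of both DMSO groups gave -0.09 (CDMB), 0.06 (CDEB) and -0.35 (DDEB), with upper limits of 1.49, 1.65 and 1.24-fold, so that the sign with CDMB turned. A second and dimmer probe of Slc7a11 followed the first with r = 0.95 over the 18 arrays after group means were removed. Its log2 changes were -0.19 with DDMB, 0.22 with CDMB, 0.19 with CDEB and -0.18 with DDEB.

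Gsr encodes glutathione reductase, which returns oxidised glutathione to its reduced form. It stood at 0.97, 1.15 and 1.25 with DDMB, at 0.94, 0.90 and 0.96 with CDMB and at 1.02, 0.83 and 0.98 with CDEB, against 0.86, 0.73 and 0.86 in VC_1. With DDEB it stood at 0.99, 1.07 and 1.31, against 0.73, 0.73 and 0.79 in VC_2. Every DDMB, CDMB and DDEB array lay above every array of its DMSO group, and 1 CDEB array lay within the VC_1 range. Groups did not overlap for 2 of 9 members with DDMB (Gsr and Osgin1) and 1 with DDEB (Gsr), where 14.2% and 16.5% of all genes did not overlap. The log2 change was 0.31 ± 0.09 with DDMB (1.08 to 1.41 times the DMSO level, adjusted p = 0.182 in limma) and 0.37 ± 0.09 with DDEB (1.13 to 1.48 times, adjusted p = 0.0711 in limma). Same-numbered DDEB and VC_2 arrays were counted as paired because their deviations correlated, though weakly for replicate 2 (r = 0.15). With the number as a block in the fit of all arrays, the DDEB change of 0.37 ± 0.08 reached an adjusted p of 0.0331 in limma. That block also covers DDMB, CDMB, CDEB and VC_1, where same-numbered arrays did not deviate together. The DDEB change had an adjusted p of 0.315 in limma when only the DDEB and VC_2 arrays were fitted with that block. Within the slide that holds VC_2 and DDEB replicates 1 and 2, the change was 0.28 ± 0.08 (adjusted p = 0.116 in limma), and scaled to the array median it was 0.23. With CDMB (0.12) and CDEB (0.13) the upper limits were 1.24 and 1.25-fold.

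Txnrd1 encodes cytosolic thioredoxin reductase, which keeps thioredoxin reduced with NADPH. Its level was 1.92, 1.73 and 1.98 with DDMB, 2.01, 1.95 and 2.22 with CDMB and 1.88, 2.07 and 2.07 with CDEB, against 1.81, 2.06 and 1.75 in VC_1. With DDEB it was 1.87, 1.92 and 1.45, against 1.53, 1.70 and 1.41 in VC_2. All groups overlapped with their DMSO group. The log2 change was 0.01 with DDMB, 0.19 with CDMB, 0.13 with CDEB and 0.20 with DDEB, each ± 0.13 (SE), and the upper limits were 1.22, 1.38, 1.33 and 1.40-fold. The second probe of Txnrd1 gave -0.08, 0.16, -0.02 and 0.05 in the same order, and followed the first less closely (r = 0.60 over 18 arrays after group means were removed).

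Srxn1 encodes sulfiredoxin, which repairs overoxidised peroxiredoxins. It stood at 5.80, 5.17 and 5.51 with DDMB, at 5.91, 6.02 and 5.96 with CDMB and at 5.84, 5.91 and 5.98 with CDEB, against 5.97, 6.02 and 5.29 in VC_1. DDEB arrays stood at 5.81, 5.76 and 5.72, against 5.87, 5.90 and 5.18 in VC_2. The treated and DMSO arrays overlapped in each comparison, and replicate 3 of both DMSO groups was again the lowest DMSO value. The Srxn1 difference on the log2 scale was -0.27 ± 0.21 with DDMB, 0.20 with CDMB, 0.15 with CDEB and 0.11 with DDEB. A rise beyond 1.14-fold with DDMB, 1.57-fold with CDMB, 1.52-fold with CDEB or 1.48-fold with DDEB was outside the interval. Without replicate 3 of both DMSO groups the differences were -0.50 ± 0.13 with DDMB (0.576 to 0.864 times, adjusted p = 0.134 in limma), -0.03 with CDMB, -0.08 with CDEB and -0.12 with DDEB. The sign thus turned for the last 3, with upper limits of 1.20, 1.16 and 1.12-fold, and none was called.

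Osgin1 encodes an oxidative stress induced growth inhibitor. It stood at 1.96, 1.90 and 1.84 with DDMB, at 2.27, 2.27 and 2.40 with CDMB and at 2.2, 2.29 and 2.21 with CDEB, against 2.60, 2.48 and 2.15 in VC_1. DDEB arrays stood at 2.28, 2.28 and 2.62, against 2.60, 2.55 and 2.22 in VC_2. Every DDMB array lay below every VC_1 array, and the other 3 compounds overlapped with their DMSO group. The log2 change with DDMB was -0.51 ± 0.13 (0.581 to 0.846 times the DMSO level, adjusted p = 0.0975 in limma), which missed the threshold. Without VC_1 replicate 3, the lowest DMSO array, it was -0.64 ± 0.12 (adjusted p = 0.0439 in limma), and without replicate 3 of both DMSO groups the adjusted p was 0.0149 in limma. Over 21 alternatives the change with DDMB ran from -0.64 to -0.42 and was called in 3, with an adjusted p of up to 0.541 in limma. The change was -0.10 with CDMB, -0.18 with CDEB and -0.06 with DDEB (-0.23, -0.31 and -0.18 without replicate 3 of both DMSO groups, none called), and no comparison left room for a rise beyond 1.15-fold.

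The 9 genes did not vary as a block between replicate cultures. After group means were removed, Gclc and Slc7a11 followed each other over the 18 arrays with r = 0.98, Gclc and Srxn1 with r = 0.91 and Slc7a11 and Srxn1 with r = 0.89, while Nqo1 ran against Gclc with r = -0.81. These values describe arrays that share group means, slides and scaling, and they carry no test. The mean level of the 8 hepatocyte markers moved with the same arrays. It was 7.21, 6.41 and 6.74 with DDMB, 7.21, 7.11 and 7.05 with CDMB and 7.17, 7.07 and 7.00 with CDEB, against 7.06, 6.88 and 6.17 in VC_1. With DDEB it was 7.14, 6.94 and 6.63, against 7.23, 7.08 and 6.33 in VC_2. The third DMSO arrays and the second DDMB array were the lowest. The same arrays were low in the mean of Cd68 and Clec4f, the measured Kupffer cell markers. That mean was -1.33, -1.40 and -3.00 in VC_1, -0.73, -0.88 and -2.72 in VC_2 and -2.04, -3.26 and -2.58 with DDMB. VC_1 replicate 3 deviated from its group mean by -0.53 for hepatocyte and -1.09 for Kupffer cell markers. For stellate cell or fibroblast, endothelial and cholangiocyte markers it deviated by 0.06, -0.02 and 0.05. After group means were removed, the hepatocyte marker level followed Gclc with r = 0.99, Slc7a11 with 0.97, Srxn1 with 0.92, Osgin1 with 0.54 and Nqo1 with -0.79 over the 18 arrays. For Gsr r was -0.52, for Txnrd1 0.49, for Nfe2l2 0.40 and for Gclm 0.28. Every level is taken relative to the 75th percentile of its array, which itself ran with or against some members. With that percentile r was -0.85 for Osgin1, -0.78 for Srxn1, -0.72 for Nfe2l2, -0.62 for Gclc and -0.58 for Slc7a11. It was 0.47 for Gclm, 0.33 for Nqo1, 0.05 for Txnrd1 and -0.02 for Gsr. Osgin1, Nfe2l2 and Gclm thus tracked the percentile more closely than the hepatocyte markers.

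**Figure D3:**
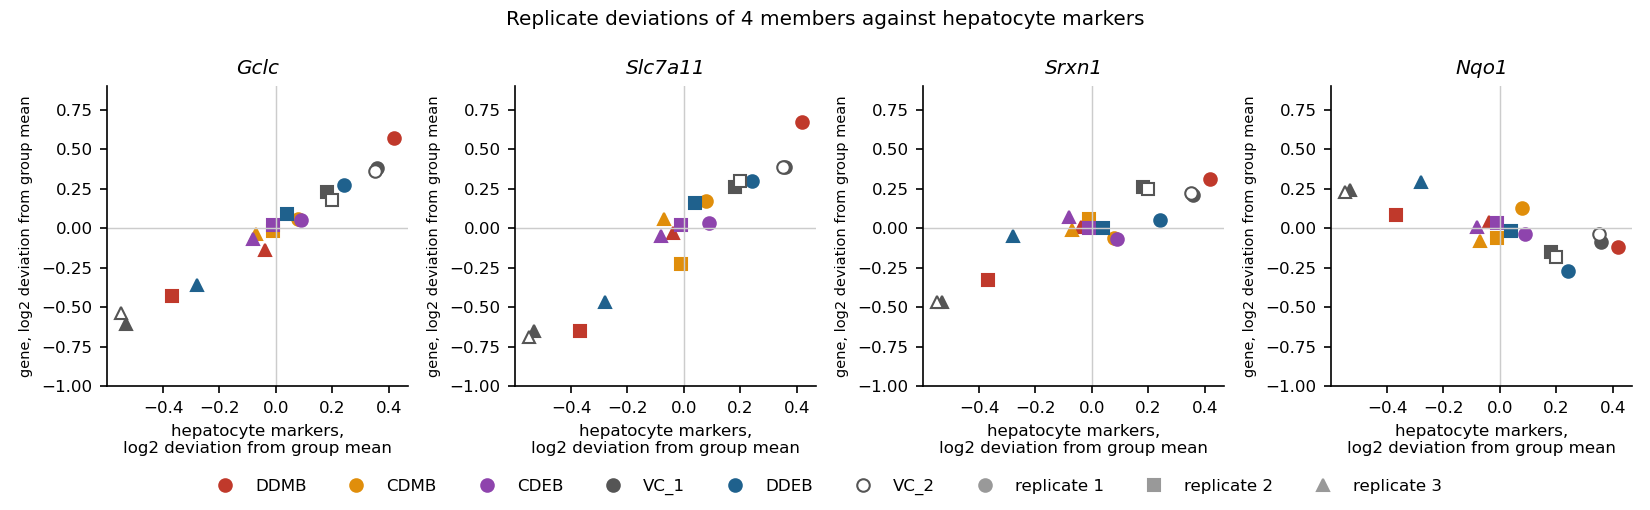
Deviation of Gclc, Slc7a11, Srxn1 and Nqo1 from the group mean on each of the 18 arrays (vertical axis, log2) against the deviation of the mean of 8 hepatocyte markers (horizontal axis, log2), with colours for groups and shapes for replicates. Gclc, Slc7a11 and Srxn1 lie higher where the markers do (r = 0.99, 0.97 and 0.92) and Nqo1 lies lower (r = -0.79), with replicate 3 of VC_1 and VC_2 at the left end.

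A fit with the hepatocyte marker level of each array as a covariate was added after the data were seen, and that level was itself measured on the treated arrays. In it, 3 of 9 genes were called with DDMB, where 5.69% of all genes were, and 1 with DDEB, where 8.5% were. With CDMB and CDEB 0 were called, where 0.278% and 0.867% of all genes were. Slc7a11 fell with DDMB by 0.76 on the log2 scale (0.511 to 0.684 times the DMSO level, adjusted p = 0.000776 in limma). Osgin1 fell with DDMB by 0.53 (adjusted p = 0.0139 in limma), and Gsr rose by 0.32 with DDMB (adjusted p = 0.0312) and by 0.38 with DDEB (adjusted p = 0.0126), all in that limma fit. The change of Gclc became 0.01 with CDMB (0.919 to 1.1 times) and 0.04 with CDEB (0.937 to 1.12 times), and 8 of 9 genes then lay within 1.5-fold with each of these compounds. In the fit of all arrays without a covariate or block, none of these was called.

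At the same dose and time, 6 pairs of compounds were compared, and 0 of 9 genes were called in any of them. For pairs with DDEB, the value is the difference of the changes, each over its own DMSO group. CDEB and CDMB lay on 1 slide, and CDEB against CDMB gave 0 of 9 genes called beside 0% of all genes, none at an unadjusted p under 0.05 in limma (4.72% of the 21574), and 6 of 9 within 1.5-fold of each other (71.7% of all genes). For Gclc the CDEB level was 0.635 to 1.53 times that of CDMB, for Slc7a11 0.650 to 1.89 times and for Nqo1 0.780 to 1.19 times. Within CDEB and CDMB the SD was only 0.06 and 0.05 for Gclc, and 0.05 and 0.21 for Slc7a11. The intervals of Gclc and Slc7a11 thus mostly carry the spread of the other groups. DDMB against CDMB gave 0 of 9 called (0.705% of all genes) and 3 at an unadjusted p under 0.05 in limma (16.5%), namely Slc7a11, Srxn1 and Osgin1. The Slc7a11 difference was -0.88 ± 0.36 (0.318 to 0.928 times, adjusted p = 0.251, or 0.427 over all 6 pairs, in limma). That of Osgin1 was -0.41 ± 0.13 (0.622 to 0.905 times, adjusted p = 0.137, or 0.241 over all pairs, in limma) and that of Srxn1 -0.47 ± 0.21 (0.528 to 0.986 times). DDMB against CDEB gave 0 of 9 called (3.22% of all genes) and 2 at an unadjusted p under 0.05 in limma (20.2%), with Slc7a11 at -1.03 ± 0.36 (0.287 to 0.836 times, adjusted p = 0.130, or 0.325 over all pairs, in limma) and Osgin1 at -0.33 ± 0.13. Slide and compound cannot be told apart in these 2 pairs.

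The differences with DDEB were wider, since each takes in 4 groups. DDEB against DDMB gave 0 of 9 called (0% of all genes), with 1 at an unadjusted p under 0.05 in limma (5.79% of all genes): the Osgin1 change was higher by 0.45 ± 0.18 with DDEB (1.05 to 1.78 times, adjusted p = 0.797, or 0.408 over all pairs, in limma). DDEB against CDMB (0% of all genes called) and against CDEB (0.00927%) gave 0 of 9 called and 0 at an unadjusted p under 0.05 in limma, where 5.8% and 6.64% of all genes passed. Nfe2l2 lay within 0.804 to 1.24-fold in all 3 pairs with DDEB and Nqo1 within 0.808 to 1.54-fold. Slc7a11 was between 0.358 and 3.32-fold, so that no close likeness of the compounds can be read from it.

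**Figure D4:**
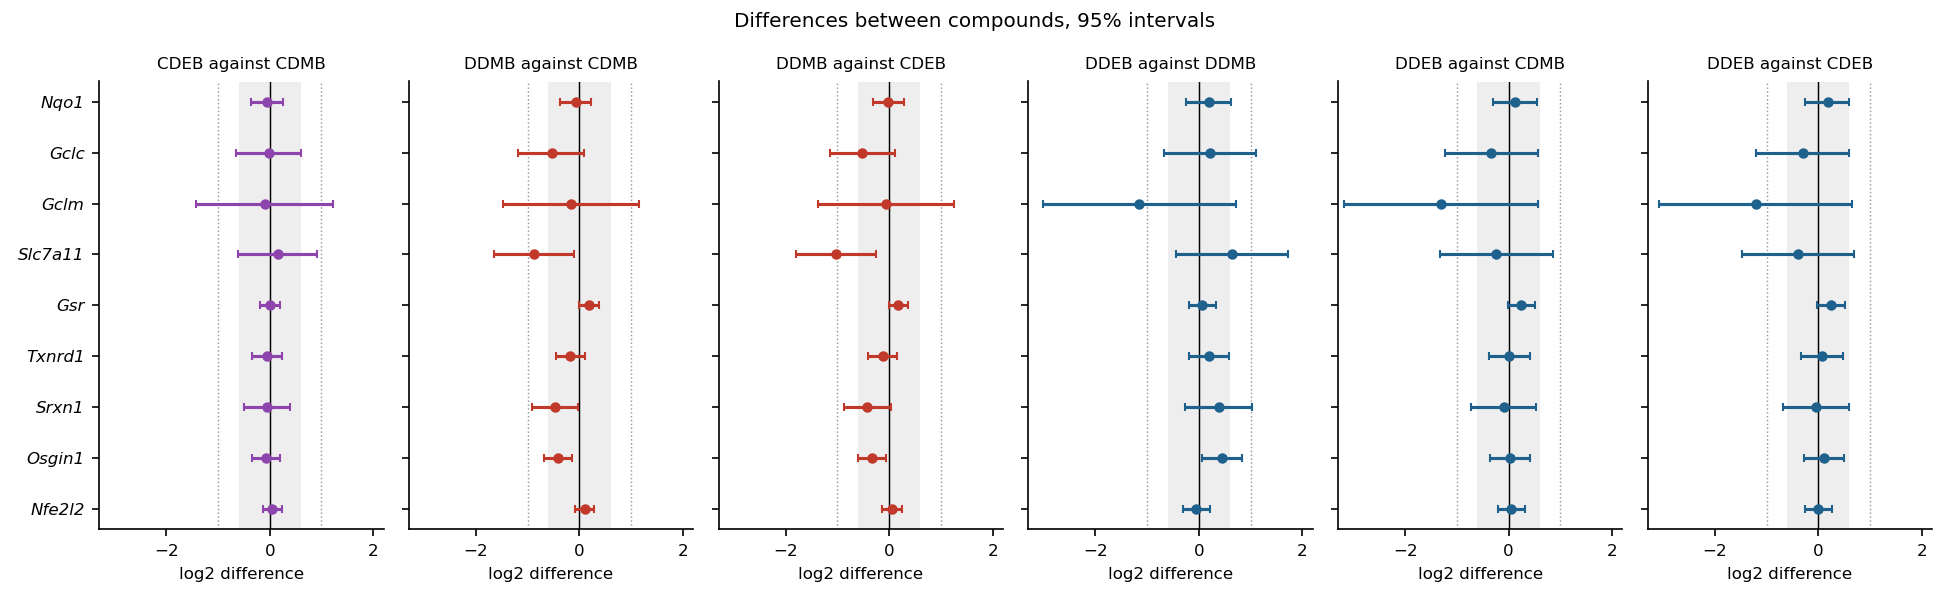
Log2 difference between compounds for each of the 9 genes in the 6 pairs, with 95% intervals of the limma fit (the grey band marks 1.5-fold and the dotted lines 2-fold). In the 3 panels with DDEB the value is the difference of the changes over each DMSO group. Slc7a11 lies at -0.88 and -1.03 in the DDMB panels, and every interval of Nfe2l2 and Gsr stays inside the band.

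Of 59 other listed genes of the pathway, 56 were measured (all but Txn, Akr1b10 and Nfe2l1), and 1 rose with DDMB and none fell, while 0 were called with CDMB, CDEB or DDEB in limma (0.556%, 0.0417%, 0.134% and 0.987% of all genes with DDMB, CDMB, CDEB and DDEB). At an unadjusted p under 0.05 in limma there were 9 with DDMB, 3 with CDMB, 6 with CDEB and 12 with DDEB, beside 9.9%, 13.3%, 13.3% and 15.2% of all genes. The median log2 change of the 56 was 0.02, 0.04, 0.01 and 0.12 in that order, and 39, 42, 43 and 40 of them lay within 1.5-fold, beside 70.0%, 66.0%, 65.5% and 66.6% of all genes. The gene that rose was Abcc2, which exports glutathione conjugates and bilirubin glucuronides into bile. It stood at 8.33, 8.73 and 8.72 with DDMB, against 8.05, 8.14 and 8.18 in VC_1, with no overlap (14.2% of all genes). Its log2 change was 0.47 ± 0.10 (adjusted p = 0.0494 in limma). Over 21 alternatives this change ran from 0.41 to 0.61 and was called in 6, with an adjusted p of up to 0.595 in limma. Leaving out any array of DDMB or VC_1 other than DDMB replicate 1 ended the call. Abcc2 stood at 7.95, 7.90 and 7.94 with CDMB and 7.79, 7.79 and 7.83 with CDEB on the same lot, and these changes, -0.19 and -0.32, were not called. Those arrays also all lay apart from VC_1, below it, where 25.5% and 29.3% of all genes did not overlap. Its DDEB arrays stood at 8.43, 8.55 and 8.72, against 8.32, 8.25 and 8.35 in VC_2, again with no overlap (16.5% of all genes). That difference of 0.26 ± 0.10 was not called.

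**Figure D5:**
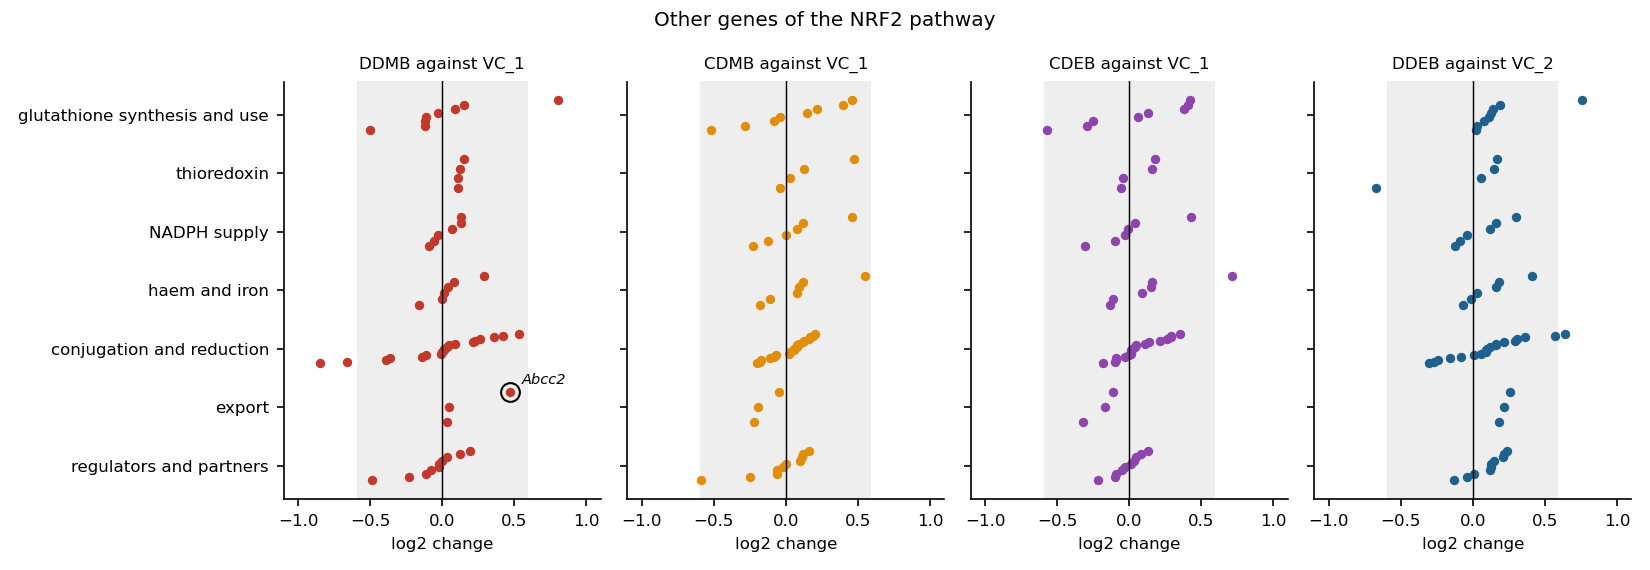
Log2 change of the 56 other genes of the NRF2 pathway (1 point each) with each compound over its DMSO group, by function. The grey band marks 1.5-fold either way, and the circled point is Abcc2 with DDMB at 0.47, the only gene called.

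Hmox1 encodes haem oxygenase, a classical gene of the oxidative stress response. It stood at 5.65, 3.90 and 4.77 with DDMB, at 5.51, 5.51 and 5.46 with CDMB and at 5.81, 5.55 and 5.6 with CDEB, against 5.68, 5.49 and 3.65 in VC_1. With DDEB it stood at 5.80, 5.41 and 4.66, against 5.64, 5.47 and 3.54 in VC_2. Its low arrays were those of low Gclc, Slc7a11 and Srxn1, and treated and DMSO arrays overlapped in every comparison. The Hmox1 change was -0.16 ± 0.60 with DDMB, 0.55 with CDMB, 0.71 with CDEB (0.673 to 4.00 times) and 0.41 with DDEB, so that a 2-fold rise was not excluded by any comparison. The Hmox1 changes without replicate 3 of both DMSO groups were -0.81 ± 0.40, -0.09, 0.07 and -0.27 in that order. Over all alternatives they ran from -0.81 to 0.27 with DDMB, -0.41 to 0.92 with CDMB, -0.15 to 1.08 with CDEB and -0.27 to 0.78 with DDEB, so no sign held throughout. With the hepatocyte marker level as a covariate, the change was -0.36 ± 0.10 with DDMB (adjusted p = 0.0467) and 0.35 ± 0.09 with DDEB (adjusted p = 0.0385), both in limma. Keap1, the inhibitor of NRF2, had log2 changes of 0.03, 0.12, 0.13 and 0.22 with DDMB, CDMB, CDEB and DDEB (SE 0.10), and its highest upper limit was 1.36-fold.

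The remaining genes of the pathway with the largest changes were not called in the fit of all arrays without a covariate or block. Gstp1, a glutathione transferase, stood at 2.55, 2.57 and 2.22 with DDMB, against 3.28, 3.09 and 3.51 in VC_1, a change of -0.85 ± 0.18 (0.423 to 0.727 times, adjusted p = 0.0595 in limma). Its DDMB arrays all lay below those of VC_1 (14.2% of all genes did not overlap), and it was called in 6 of 21 alternatives. Ggt1, the γ-glutamyltransferase that starts the breakdown of extracellular glutathione, had changes of 0.80 with DDMB, -0.52 with CDMB, -0.57 with CDEB and 0.76 with DDEB, with an SE of 0.62. Over the alternatives these ran from 0.36 to 1.48, -0.88 to 0.45, -0.93 to 0.30 and 0.38 to 1.31 in that order. With the hepatocyte marker covariate Ggt1 was called with DDMB (0.99, adjusted p = 0.00477) and DDEB (0.82, adjusted p = 0.0132), both in limma. Txnip, which binds and inhibits thioredoxin, stood at 0.11, -0.19 and -1.17 with DDEB, against 0.50, 0.20 and 0.08 in VC_2, a change of -0.67 ± 0.28 (adjusted p = 0.262 in limma) that was -0.30 without the third DDEB array. Trim16, a ubiquitin ligase, was not well above background on any CDMB array. Its measured mean was -5.37 with CDMB and -4.78 in VC_1 (0.511 to 0.862 times, adjusted p = 0.222 in limma), and the size of the difference is uncertain at such a dim signal. With normexp background correction its change with CDMB was 0.01, so this difference was not seen under that correction.

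Among the genes whose pattern was most like the mean of the 9 over the 18 arrays, after centring on each chip lot, were Nolc1 (r = 0.953), Dgat2 (0.953), Trmt61a (0.942) and Abcc8 (0.940). The members themselves differed in how closely they followed that mean. Srxn1 (0.92), Gclc (0.89) and Slc7a11 (0.89) followed it most closely, Osgin1 (0.62) and Txnrd1 (0.60) less so, and Nfe2l2 (0.23), Gclm (0.06), Gsr (-0.12) and Nqo1 (-0.37) hardly or not at all. The mean of the standardised levels was lowest on DDMB replicate 2 (-0.87), VC_1 replicate 3 (-0.79) and VC_2 replicate 3 (-0.79). These correlations describe the same arrays, slides and scaling, and they carry no test.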

How the data were processed

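RNA of hepatocyte cultures was hybridised to 18 one-colour Agilent arrays. Per the file headers, the scanner software was Feature Extraction 10.7.1.1, whose processed intensity is corrected for background within the array. The authors deposited 2 further tables of signal on a linear scale, 1 per chip lot, with a scaling that the labels do not state; they served as an alternative. Each array held 62976 spots, none of the 58717 probe spots was saturated, and 61.03% to 64.25% of spots lay well above background. The 75th percentile of the processed intensity over probes ran from 430 to 654, and the number of arrays limits the precision.

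Unflagged spots of a probe were averaged as log2 processed intensity, from which the array's 75th percentile over probes was taken off. Of 45598 probes, 435 had every spot flagged on some array and were left out. Of the 45163 others, 25306 were kept because in 1 group or more they were well above background on each array (a share of at least 0.5 of the unflagged spots), giving 21574 genes by the brightest probe. All 9 members passed. Accessions without version were named through the RefSeq gene table of GRCr8 (21102 probes, 16575 genes); the headers name build rn4, and no probe coordinates are given. The fit was made with limma 3.58.1 (R 4.3.3) on 6 group means and 18 arrays, with lmFit and eBayes, and left 12 residual degrees of freedom. Benjamini-Hochberg adjustment ran over all genes of a comparison. Intervals are at 95%, gene by gene. The procedure was tested on simulated data, with noise drawn independently for every array and, for each gene, the same spread in all groups. The real arrays shared deviations and differed in spread between groups. That test therefore does not show how well the intervals reported here cover.

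Named are the 9 members, Hmox1, Keap1, every other pathway gene called, the 2 other pathway genes with the largest change per compound, and the 5 genes most like the members, of which 1 is not reported here; pathway genes named for the covariate fit or the block were chosen after their values were seen. The members and lists were chosen with earlier results of these data known. Same-numbered arrays deviated together in DDEB and VC_2 (r = 0.55, 0.15 and 0.55 over 18652 genes), which was counted as pairing since every value lies over 0.1, although DDEB replicate 2 was closest to VC_2 replicate 1. They did not in DDMB and VC_1 (0.69, -0.56 and 0.13), CDMB and VC_1 (0.05, 0.03 and 0.08) or CDEB and VC_1 (0.29, -0.04 and 0.14). The normexp alternative (offset 50) used median spot signals, since no mean signal was used here.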

Additional observations from a re-analysis of the deposited data

How the results depend on the processing

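No member value was both called and opposite in direction under any of the alternatives: over the 4 comparisons with DMSO, 743 member values were computed, 7 were called, and 57 had another sign than the value reported, 0 of these called. The following alternatives were chosen after seeing the data: the percentile over spots, the block in VC_2 and DDEB alone, replicate 3 of both DMSO groups left out, and the hepatocyte marker covariate. With the replicate block in the fit of all arrays, 1 member was called with DDEB (Gsr, 0.37, adjusted p = 0.0331 in limma) and 1 other pathway gene (Gstm2, 0.57, adjusted p = 0.0395 in limma); it changed no other count by more than 1.5 times. With the marker covariate, members called were 3 with DDMB, 1 with DDEB, 1 for DDMB against CDMB (Slc7a11, -0.43) and 1 for DDMB against CDEB (Slc7a11, -0.63), other pathway genes called were 11 with DDMB and 7 with DDEB, and members within 1.5-fold were 8 with CDMB and 8 with CDEB. Without replicate 3 of both DMSO groups, 1 member was called with DDMB (Osgin1, -0.64), 1 for DDMB against CDMB (Osgin1, -0.41) and 2 for DDMB against CDEB (Slc7a11, -1.03, and Osgin1, -0.33), and 0 other pathway genes with DDMB. The pairs DDMB against CDMB and DDMB against CDEB hold no DMSO array. Their differences therefore stayed as reported, and the shared error fell (for Slc7a11 in DDMB against CDEB from 0.36 to 0.27). Other pathway genes called with DDMB, 1 as reported, were 0 with normexp, quantile normalization, median scaling, the percentile over spots, no filter, the mean over probes and only the arrays compared, 2 with the stricter filter, 3 with slide as a random block and 4 with it as a fixed block. Members within 1.5-fold were 2 with CDEB under slide as a random block, and 3 with DDEB with only the arrays compared, with VC_2 and DDEB fitted apart, and with intervals widened for 9 members. The cause of the remaining shifts was not tested.

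Leaving out single arrays, members called ranged from 0 to 1 with DDMB (Osgin1 without VC_1 replicate 3), members within 1.5-fold from 3 to 5 with DDEB (3 without VC_2 replicate 2), and other pathway genes called from 0 to 3 with DDMB and 0 to 1 with DDEB. Where an arm held 2 arrays, its spread was taken as that of the other groups. Median scaling shifted the DDEB median of all genes to -0.122 and the share of higher calls to 8.05%, against 72.8% as reported and 47.7% after quantile normalization; Gsr with DDEB was then 0.23. With DDMB that share was 40.8% as reported, 29.9% after quantile normalization and 27.0% after median scaling. DDEB calls over all genes numbered 298 after median scaling, 325 after quantile normalization and 72 after normexp, against 213 as reported. Gclm, the dimmest probe, limits what can be said of glutamate-cysteine ligase.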
